A study of Homo sapiens with 8 samples.

Results

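Osimertinib, a covalent inhibitor of mutant EGFR, was set directly against alpelisib, an inhibitor of PI3K alpha, in NCI-H1975, an established lung adenocarcinoma cell line that depends on mutant EGFR. The comparison rests on 4 of the 8 arrays of the series, namely 2 arrays of cells given osimertinib alone at 10 nM and 2 arrays of cells given alpelisib alone at 1 µM. Each drug was present for 24 hours, on 1 array together with 2 mM L-histidinol and on the other without it, so the 4 arrays form 1 pair with L-histidinol and 1 pair without. L-histidinol is a histidine analogue that blocks the charging of histidine tRNA. The other 4 arrays held cells given both drugs at these doses and cells given the vehicle DMSO, again with and without L-histidinol. The arrays were chosen by their labels and not by any measured value. Each condition is 1 array, and the labels do not say that arrays came from separate cultures. There are no replicates, so p-values do not weigh a difference against the spread between replicate cultures. They weigh it against how far these arrays depart from added drug and L-histidinol effects. Since the doses of the drugs differ, the comparison describes these doses and not the relative potency of the drugs.

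EGFR is a receptor tyrosine kinase that signals through RAS to the kinase ERK and, in parallel, through PI3K to the kinase AKT. ERK drives immediate early transcription factors and a set of feedback inhibitors, such as the Sprouty proteins and the DUSP phosphatases, whose mRNA levels follow ERK activity. AKT keeps FOXO transcription factors out of the nucleus, and when PI3K is blocked FOXO proteins raise a set of stress, atrophy and receptor genes. An EGFR inhibitor can act on both branches, whereas a PI3K alpha inhibitor acts on the second.

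All levels below are log2 of the deposited signal intensity, and all differences are log2 units, so that 1 unit is a 2-fold change. Differences come from a limma fit over the 8 arrays, with an L-histidinol term and a drug term, in which 19775 genes were tested, and a gene was called at a Benjamini-Hochberg adjusted p below 0.05. Errors after ± are standard errors of that fit, with 2 arrays per drug that differ in L-histidinol and are not replicates. Median intensities lay between 21.8 and 22.4 on the 8 arrays. The ACTB 3′ to 5′ ratio, a sign of RNA integrity, was 1.06 on the osimertinib array and 1.04 on the alpelisib array without L-histidinol, and 1.15 and 1.10 on the arrays with it. Epithelial markers fitted the label, with mean levels of 13.06 for KRT7, 12.15 for EPCAM and 8.53 for NKX2-1, although the surfactant and pneumocyte genes SFTPB (6.14) and NAPSA (5.60) were low. Of 15 measured markers of blood, endothelium, fibroblasts and muscle, 10 had mean levels under 5, PTPRC at 2.82 and LYZ at 2.48 among them. The others were COL1A1 at 9.14 and HBB, MYH11, PECAM1 and DCN, of which HBB was the highest at 5.79. The files used here give no detection calls. A gene is called dim below where its level is under 5, a little above the median of the arrays, and a difference in which 1 drug leaves a gene dim is a fitted value that may understate the change.

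Between osimertinib and alpelisib, 2185 genes were called, which is 11.0% of those tested. Of these, 1096 were higher with osimertinib (5.54% of the genes tested) and 1089 were lower (5.51%). At least 2-fold differences were seen in 58 of the higher and 93 of the lower genes. Every one of the 2185 had the same sign in the pair with L-histidinol and in the pair without it, and across these genes the differences of the 2 pairs correlated at r = 0.94, against 0.651 over all genes. The pairs entered the same fit, so this is a description of the calls. The count depends on each of the 4 arrays: it was 606 without the osimertinib array that had L-histidinol, 680 without the one that lacked it, 806 without the alpelisib array that had L-histidinol and 452 without the one that lacked it. All 2185 genes kept their sign in each of these fits. Such a fit rests mainly on the remaining pair, in which the sign was already the same, so this is no separate check.

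**Figure D1:**
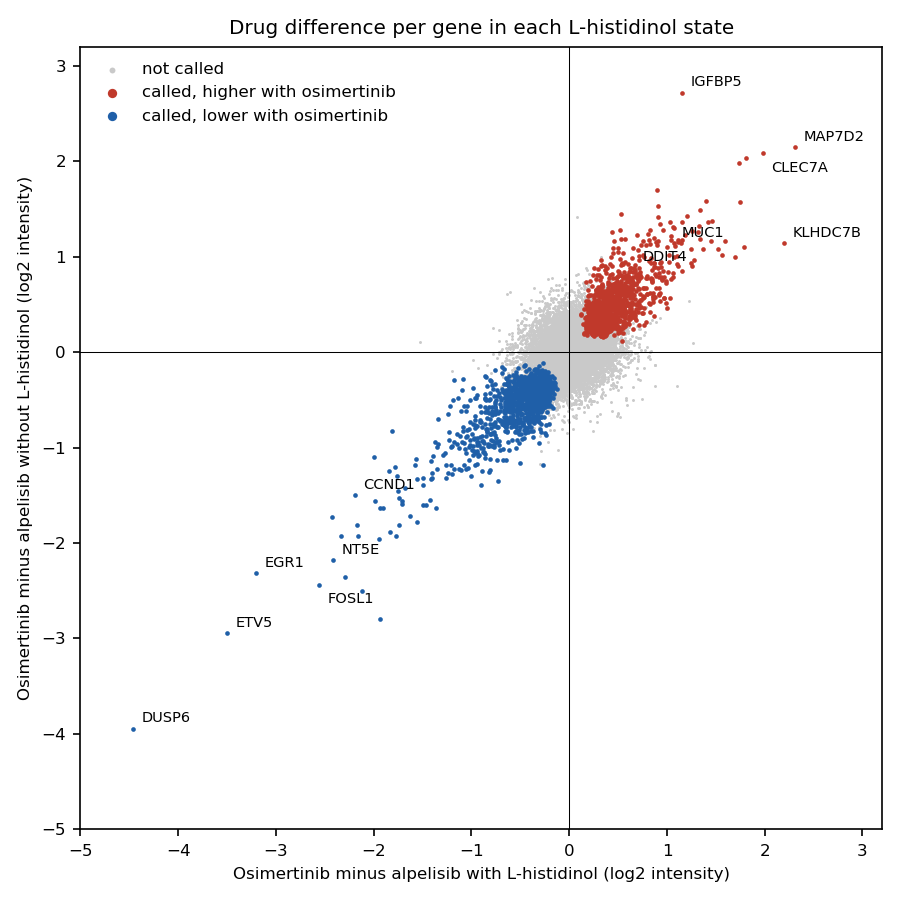
Osimertinib minus alpelisib for each of 19775 genes on the pair of arrays with L-histidinol (x axis) and on the pair without it (y axis), both in log2 intensity; red points are the 1096 genes called higher with osimertinib, blue points the 1089 called lower and grey points the others. DUSP6 and ETV5 lie farthest to the lower left, and IGFBP5 stands off the diagonal because its difference is larger without L-histidinol.

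Against vehicle, osimertinib called 6011 genes (30.4% of those tested), 554 of them at least 2-fold, and alpelisib called 2267 (11.5%), 58 of them at least 2-fold. By direction, 16.4% of all genes were higher and 14.0% lower than vehicle with osimertinib, and 7.08% were higher and 4.38% lower with alpelisib. List counts below are to be read against these shares, or between the drugs against 5.54% higher and 5.51% lower. The 2 comparisons share the 2 vehicle arrays. Most genes that separated the drugs did so through the osimertinib arm. Of the 1096 higher genes, 598 were called against vehicle with osimertinib and not with alpelisib, and 433 were called with both drugs in the same direction with the larger change under osimertinib. Of the 1089 lower genes, the corresponding numbers were 669 and 245. A smaller group was carried by alpelisib, with 12 higher and 72 lower genes called against vehicle with alpelisib and not with osimertinib, and 13 lower genes in which both drugs moved the gene the same way and alpelisib moved it more. A further 51 higher and 73 lower genes were called against vehicle with neither drug. P-values were adjusted within each comparison, so a change of a given size passed more easily with osimertinib, which had more calls. WARS1 was called with osimertinib at 0.229 ± 0.079, while BCL2L11 was not called with alpelisib at 0.253 ± 0.075. A gene called with 1 drug only may therefore also have moved with the other. The alpelisib calls rest heavily on single arrays: 175 genes were called against vehicle without the alpelisib array that had L-histidinol, 600 without the one that lacked it, and 1171 without the vehicle array that lacked L-histidinol.

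Among the genes that fell most with osimertinib relative to alpelisib were immediate outputs and feedback inhibitors of ERK. DUSP6, the phosphatase that inactivates ERK, lay at 4.003 with and 3.98 without L-histidinol under osimertinib, against 8.47 and 7.93 under alpelisib and 8.50 and 7.47 in vehicle. The osimertinib arrays were far below all others, and the alpelisib arrays lay within the range of the vehicle arrays. DUSP6 was dim under osimertinib, so the fitted difference of -4.21 ± 0.18 (adjusted p = 4.32e-07) may understate its fall, and its change against vehicle was -3.995 ± 0.18 with osimertinib and 0.21 ± 0.18 with alpelisib (adjusted p = 0.559). ETV5, an ETS factor induced by ERK, had levels of 5.05 and 5.24 under osimertinib, against 8.55 and 8.19 under alpelisib and 8.81 and 8.01 in vehicle. Its difference between the drugs was -3.22 ± 0.17 (adjusted p = 1.71e-06), or -1.70 when all probe sets of the gene were averaged. FOSL1, an AP-1 subunit that accumulates under sustained ERK activity, lay at 7.21 and 7.91 under osimertinib, against 9.77 and 10.34 under alpelisib and 10.26 and 10.64 in vehicle. FOSL1 was lower by -2.50 ± 0.09 with osimertinib than with alpelisib (adjusted p = 7.33e-08), and alpelisib alone also lowered it, by -0.39 ± 0.09 (adjusted p = 0.0134). CCND1, which encodes cyclin D1 and links mitogen signals to the cell cycle, lay at 7.47 and 8.11 under osimertinib, against 9.66 and 9.60 under alpelisib and 9.74 and 9.53 in vehicle. The alpelisib and vehicle arrays overlapped for CCND1, and both osimertinib arrays were below them.

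Of the 20 genes listed as ERK output, 18 were called lower with osimertinib than with alpelisib and 0 higher. Their median difference was -1.386, beside 0.018 over all genes tested, and their median change against vehicle was -1.329 with osimertinib and -0.007 with alpelisib. The phosphatases DUSP4 (-1.86) and DUSP5 (-1.48), the ETS factor ETV4 (-1.85), PHLDA1 (-1.67), SPRY4 (-1.29) and SPRED2 (-0.94) were among the 18, ETV4 and SPRY4 being dim under osimertinib. The members that were not called were EPHA4 and SPRED3, whose differences were 0.14 and -0.12 with 95% intervals of -0.12 to 0.41 and -0.37 to 0.12, and EPHA4 was dim at 4.03 to 4.30 on the 4 arrays. Between 16 and 17 members were called lower when 1 of the 4 single-drug arrays was left out. FOS, which was dim on average at 4.48, and SPRY2 were among those lost in such fits, FOS without either array that had L-histidinol and SPRY2 without any of the 4.

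EGR1, an immediate early zinc finger factor that is switched on within minutes of ERK activation, moved in opposite directions under the 2 drugs. Its promoter is shown because serum response elements there, the CArG boxes bound by serum response factor, are the textbook route from ERK to this gene. The window below is from RefSeq, build GRCh38.p14, plus strand, chr5:138465349-138465430, with 2 CArG box matches in capitals between 74 and 105 bases before the start of the gene. A CArG box was found in the 250 bases before a start in 239 of 15384 tested genes with a promoter in the table (1.55%), in 14 of 868 genes called lower (1.61%) and in 18 of 867 called higher (2.08%).
EGR1: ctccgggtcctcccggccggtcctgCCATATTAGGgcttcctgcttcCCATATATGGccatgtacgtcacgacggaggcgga
EGR1 lay at 5.31 and 5.11 under osimertinib, against 8.51 and 7.42 under alpelisib and 7.67 and 6.39 in vehicle. In each L-histidinol state the alpelisib array was the highest of the 3 and the osimertinib array the lowest. The difference between the drugs was -2.76 ± 0.25 (adjusted p = 5.79e-05), made up of -1.83 ± 0.25 with osimertinib and 0.93 ± 0.25 with alpelisib against vehicle (adjusted p = 0.00019 and 0.0326). The rise of EGR1 with alpelisib was not called without the vehicle array that lacked L-histidinol (0.51) or without either alpelisib array (1.22 and 0.64). On the arrays with both drugs EGR1 lay at 5.51 and 5.46.

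In all, 19 genes were called in opposite directions against vehicle and called between the drugs, 0.0961% of those tested, of which 17 were lower with osimertinib and higher with alpelisib. They included ITGA2, the collagen-binding integrin alpha 2 subunit, with 7.91 and 8.18 under osimertinib, against 10.25 and 10.11 under alpelisib and 9.74 and 9.48 in vehicle. The 3 conditions did not overlap for ITGA2, and the drugs differed by -2.13 ± 0.11 (adjusted p = 1.43e-06). MAFF, a small MAF leucine zipper factor, lay at 6.56 and 6.70 under osimertinib, against 8.74 and 8.51 under alpelisib and 8.23 and 7.87 in vehicle, a difference of -1.99 ± 0.11 (adjusted p = 1.72e-06). ANGPTL4, a secreted inhibitor of lipoprotein lipase (-1.77), HMGA2, an architectural chromatin protein (-1.95), and PLAU, the protease urokinase (-1.16), followed the same pattern. The genes in the other direction were PPP1R3C, a glycogen-targeting subunit of a protein phosphatase (0.34 with osimertinib and -0.38 with alpelisib against vehicle), and the probe set annotated to the immunoglobulin heavy chain locus IGH (0.81 and -0.64). This class is fragile, with 1 gene left without the alpelisib array that had L-histidinol, 2 without the one that lacked it, 9 without the vehicle array that lacked L-histidinol and 12 without the osimertinib array that had L-histidinol. The alpelisib side of HMGA2 was 0.51 with the chosen probe set and -0.13 (not called) when probe sets marked as matching several transcripts were dropped.

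Of 14 measured AP-1 and EGR factors 4 were called lower with osimertinib, namely EGR1, FOSL1, MAFF and FOS (-1.02), and 2 higher, JUNB (0.40) and ATF3 (0.61). JUNB was lost without 3 of the 4 single-drug arrays.

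Other genes that separated the drugs downward encode surface, matrix and secreted proteins. NT5E, the ectoenzyme CD73 that makes adenosine, lay at 8.05 and 8.35 under osimertinib, against 10.46 and 10.53 under alpelisib and 10.28 and 10.31 in vehicle. The vehicle and alpelisib arrays lay together, and the drugs differed by -2.29 ± 0.08 (adjusted p = 7.33e-08). CD274, which encodes the immune checkpoint ligand PD-L1 and was picked after its values were seen, lay at 6.76 and 7.26 under osimertinib, against 8.54 and 8.46 under alpelisib and 8.56 and 8.22 in vehicle (-1.49 ± 0.15, adjusted p = 0.000132). ACOX2, a peroxisomal oxidase, differed by -2.31 ± 0.16. PTX3, a secreted pentraxin, was dim under osimertinib, with 3.86 and 3.29, against 6.29 and 5.02 under alpelisib (-2.08 ± 0.17). MYEOV was likewise dim under osimertinib on both arrays and the noncoding RNA LINC00973 on the array with L-histidinol, and their fitted differences were -2.37 and -2.33. IL1RL1, the receptor for interleukin 33, was dim under osimertinib and differed by -2.04 with its brightest probe set but by -0.29, not called, once probe sets marked as matching several transcripts were dropped.

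Ligands and receptors of the EGFR family changed in different directions. Of 8 measured EGF family ligands, TGFA (-1.45 ± 0.09), EREG (-1.06 ± 0.13) and NRG1 (-0.68 ± 0.10) were called lower with osimertinib and 0 higher. HBEGF, another ligand, was not called (0.08, 95% interval -0.32 to 0.47). That value averages pairs of opposite sign, as HBEGF differed by -0.395 with L-histidinol and by 0.549 without it. Among 16 receptors and adaptors, 6 were called lower and 3 higher. EGFR itself lay at 8.81 and 8.43 under osimertinib, against 9.38 and 8.999 under alpelisib and 9.35 and 8.96 in vehicle. Alpelisib and vehicle differed by 0.03 ± 0.07 for EGFR, and osimertinib and alpelisib by -0.57 ± 0.07 (adjusted p = 0.000307). AXL (-0.67) and the insulin receptor substrate IRS1 (-0.62) were also lower with osimertinib. Averaging all probe sets of a gene gave smaller differences for EGFR (-0.31), AXL (-0.40) and TGFA (-0.74), and NRG1 was not called once marked probe sets were dropped (-0.21). ERBB2 was higher with osimertinib, at 8.93 and 9.25, against 8.56 and 8.82 under alpelisib and 7.99 and 8.28 in vehicle (0.40 ± 0.07, adjusted p = 0.00399), and each drug raised it above vehicle, by 0.96 and 0.56. The call of ERBB2 between the drugs was lost without either osimertinib array or without the alpelisib array that lacked L-histidinol, and that of NRG1 without the osimertinib array that had L-histidinol or the alpelisib array that lacked it. When 1 of the 4 single-drug arrays was left out, 0 to 1 receptors or adaptors were called higher and 3 to 5 lower.

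Secreted cytokines did not move as a group. Of 19 measured cytokines and chemokines, 6 were called lower with osimertinib and 2 higher, beside 5.51% and 5.54% of all genes. The other 11 were not called, and 7 of the 19 had mean levels under 5. The list median was 0.013, near the 0.018 of all genes. IL11, a cytokine of the interleukin 6 family, lay at 7.40 and 7.62 under osimertinib, against 8.95 and 8.95 under alpelisib and 8.98 and 9.37 in vehicle (-1.44 ± 0.10, adjusted p = 1.19e-05). The osimertinib arrays were the lowest. LIF, of the same family (-0.53), and the chemokine CX3CL1 (-0.95) were also lower, but CX3CL1 was lost on leaving out any 1 of the 4 single-drug arrays and LIF on leaving out 3 of them. In such fits 1 to 4 members were called lower, 1 of them without the alpelisib array that had L-histidinol.

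**Figure D2:**
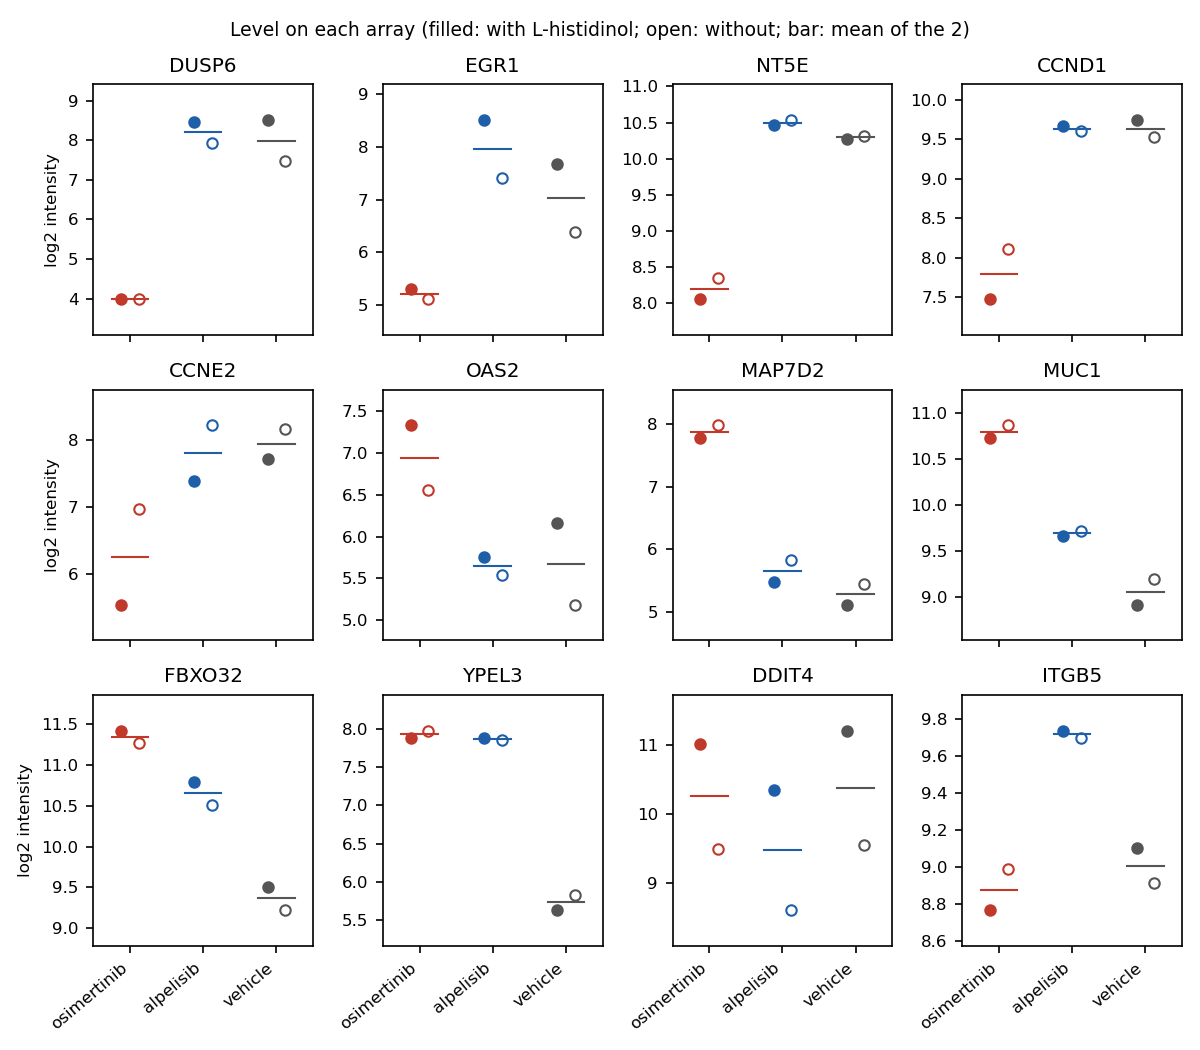
Level of 12 genes on the osimertinib, alpelisib and vehicle arrays in log2 intensity; filled points are arrays with L-histidinol, open points arrays without it, and bars the mean of the 2. DUSP6, NT5E, CCND1 and CCNE2 are low under osimertinib alone, YPEL3 is high under each drug, and DDIT4 and ITGB5 differ from vehicle under alpelisib.

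DNA replication genes fell with osimertinib and much less with alpelisib. Of 28 measured genes of the G1/S transition and DNA replication, 24 were called lower with osimertinib than with alpelisib and 0 higher, with a median of -0.885. All 28 were lower with osimertinib on both pairs of arrays. Against vehicle 27 were called lower with osimertinib and 1 with alpelisib, with medians of -1.154 and -0.331. The shares of all genes were 14.0% and 4.38%, and the medians of all genes 0.013 and -0.002. The alpelisib count is thus near its background, while the list median with alpelisib lay below that of all genes. CCNE2, a cyclin E that opens S phase, lay at 5.54 and 6.97 under osimertinib, against 7.38 and 8.22 under alpelisib and 7.71 and 8.16 in vehicle (-1.54 ± 0.21, adjusted p = 0.000933). CDC6 and MCM10, which load and activate the replicative helicase, differed by -1.28 ± 0.18 and -1.38 ± 0.19, and UHRF1, which maintains DNA methylation after replication, by -1.01 ± 0.10. The member called with alpelisib was MCM10, which changed by -0.65 ± 0.19 (adjusted p = 0.0491). TK1, thymidine kinase, was not called between the drugs (-0.19, 95% interval -0.44 to 0.06). Fewer members were called lower without the alpelisib array that lacked L-histidinol (8) or without the osimertinib array that had it (10), while 21 and 22 were called without the other 2 arrays.

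Replication genes are a textbook target of E2F factors, so promoters of this list are shown. The E2F letters searched were TTTGGCGC and TTTCCCGC, on both strands, in the 250 bases before each RefSeq start (GRCh38.p14). Either form was present in 485 of 15384 tested genes with a promoter (3.15%), in 65 of 868 genes called lower with osimertinib (7.49%) and in 18 of 867 called higher (2.08%). Of the replication genes called lower, 10 of the 21 with a promoter held it (47.6%), and of all measured members of the list, called or not, 12 of 24 did (50%). The windows are chr19:4909462-4909500 on the plus strand, chr20:5126649-5126706 on the minus strand and chr18:657589-657646 on the plus strand, with the match in capitals.
UHRF1: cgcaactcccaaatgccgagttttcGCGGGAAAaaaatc
PCNA: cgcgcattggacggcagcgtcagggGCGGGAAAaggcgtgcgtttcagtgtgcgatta
TYMS: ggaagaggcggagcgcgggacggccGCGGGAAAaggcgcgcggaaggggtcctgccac
A match describes letters in these windows and is not evidence of binding. PCNA, the sliding clamp of the replication fork, lay at 9.82 and 10.52 under osimertinib, against 10.63 and 11.22 under alpelisib and 11.02 and 11.42 in vehicle, and TYMS, thymidylate synthase, differed by -0.79 ± 0.17 between the drugs. The calls of PCNA and TYMS were lost without the alpelisib array that lacked L-histidinol or the osimertinib array that had it, and that of TYMS also without the alpelisib array that had it.

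Of 20 measured genes of G2/M and mitosis, AURKB (-0.96 ± 0.15) and CDK1 (-0.52 ± 0.15) were called lower with osimertinib and 0 higher, with a list median of -0.022 with and -0.415 without L-histidinol. Against vehicle 17 of the 20 were called lower with osimertinib and 2 with alpelisib, beside 14.0% and 4.38% of all genes. The list medians against vehicle were -0.705 and -0.35, beside 0.013 and -0.002 over all genes. The count of mitotic genes called lower between the drugs depended on the fit, with 0 without the alpelisib array that lacked L-histidinol, 9 with only the 4 single-drug arrays and 14 with all 2-way terms. CDK1 was lost on leaving out any 1 of the 4 single-drug arrays and AURKB without the alpelisib array that lacked L-histidinol. Among 10 measured G1 regulators 2 were called lower and 3 higher. Besides CCND1, CCND3 was lower (-0.53) and the CDK inhibitors CDKN2B (0.61), CDKN1C (0.52) and CDKN1B (0.28) were higher with osimertinib. CDKN1B, the FOXO target p27, lay at 9.06 and 8.85 under osimertinib, against 8.73 and 8.61 under alpelisib and 8.55 and 8.37 in vehicle. CDKN1B and CDKN1C were lost in each fit that left out 1 single-drug array, CCND3 in 3 of the 4 and CDKN2B without either array that lacked L-histidinol. CDKN1A was higher than vehicle with each drug (0.67 and 0.49) and did not pass the test between them, and its rise with alpelisib was lost without either alpelisib array.

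Of 18 measured genes of ribosome assembly and MYC targets, MYC included, 11 were called lower with osimertinib than with alpelisib and 0 higher (median -0.351), and 18 were below vehicle with osimertinib and 12 with alpelisib. MYC itself lay at 10.82 and 10.19 under osimertinib, against 11.39 and 10.90 under alpelisib and 11.41 and 10.88 in vehicle. Its alpelisib and vehicle arrays nearly coincided in each L-histidinol state, and the difference between the drugs was -0.64 ± 0.07 (adjusted p = 0.000181). POLR3G, a subunit of RNA polymerase III, was lower than vehicle by -1.61 with osimertinib and -0.82 with alpelisib. NPM1, nucleophosmin, met the rule for a shared fall, with -0.20 and -0.16, and lost its alpelisib call without any 1 of the single-drug arrays. When 1 of the 4 single-drug arrays was left out, 1 to 3 members were called, so the graded difference rests on all 4 arrays.

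Of 20 measured interferon-stimulated genes, 14 were called higher with osimertinib than with alpelisib and 0 lower, with a median of 0.619. Their medians against vehicle were 0.662 with osimertinib and 0.095 with alpelisib. Above vehicle were 17 members with osimertinib and 4 with alpelisib, beside 16.4% and 7.08% of all genes. OAS2, which makes the activator of RNase L, lay at 7.32 and 6.56 under osimertinib, against 5.76 and 5.54 under alpelisib and 6.16 and 5.19 in vehicle. Its alpelisib arrays lay inside the range of the vehicle arrays, and the osimertinib arrays above it (1.29 ± 0.19, adjusted p = 0.0015). GBP2, a guanylate-binding protein, rose with each drug, with 7.35 and 8.01 under osimertinib, against 6.52 and 6.72 under alpelisib and 4.71 and 5.22 in vehicle (1.05 ± 0.12 between the drugs, adjusted p = 0.000399). IRF9, the DNA-binding subunit of the factor that reads type I interferon signals, differed by 0.85 ± 0.13, IFIT1 by 0.80 ± 0.11 and MX1 by 1.23 ± 0.23. The count was 9 without either array that lacked L-histidinol and 6 without either array that had it, and MX1 was lost in 3 of these 4 fits.

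The paired site of interferon regulatory factors was searched as GAAANNGAAA on both strands in the same windows, since these genes are known to carry it. It was present in 522 of 15384 tested genes with a promoter (3.39%), in 57 of 867 genes called higher with osimertinib (6.57%) and in 25 of 868 called lower (2.88%). Of the interferon genes called higher, 9 of the 11 with a promoter held it (81.8%), and of all measured members 13 of 16 did (81.2%). The windows are chr10:89392482-89392554 on the plus strand, chr1:89065301-89065360 on the minus strand and chr1:1013359-1013424 on the plus strand, where 2 matches overlap.
IFIT1: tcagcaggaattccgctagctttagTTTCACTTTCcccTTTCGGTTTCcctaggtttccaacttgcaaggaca
GBP1: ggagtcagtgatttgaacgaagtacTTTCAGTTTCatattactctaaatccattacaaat
ISG15: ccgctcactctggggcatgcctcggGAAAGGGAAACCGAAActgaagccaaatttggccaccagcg
IFIT1 lay at 9.89 and 9.32 under osimertinib, against 8.86 and 8.75 under alpelisib and 9.25 and 9.09 in vehicle. GBP1 lay at 8.69 and 8.77 under osimertinib, against 8.16 and 7.32 under alpelisib and 6.67 and 6.46 in vehicle. The alpelisib arrays were below vehicle for IFIT1, without passing the test (-0.36, adjusted p = 0.0613), and above it for GBP1 (1.18, adjusted p = 0.00178). The difference of GBP1 between the drugs (0.99) was not called without the osimertinib array that lacked L-histidinol (0.77), and it was 0.60 without the alpelisib array that lacked it. ISG15 differed by 0.38 and was not called without either array that had L-histidinol.

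Of 11 measured genes of MHC class I antigen presentation, the immunoproteasome subunit PSMB9 (0.49 ± 0.07), the peptide editor TAPBP (0.40 ± 0.07), HLA-E and PSMB8 were called higher with osimertinib and 0 lower. B2M, the invariant light chain, differed by 0.07 with a 95% interval of -0.04 to 0.17, and HLA-B by 0.10 (-0.07 to 0.27). TAP2, also not called between the drugs (-0.21, -0.43 to 0.01), was lower than vehicle with each, by -0.58 with osimertinib and -0.37 with alpelisib. Leaving out 1 of the 4 single-drug arrays left 1 member called, which was PSMB9.

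The genes most increased by osimertinib over alpelisib did not belong to one list. MAP7D2, a microtubule-associated protein, lay at 7.78 and 7.98 under osimertinib, against 5.47 and 5.83 under alpelisib and 5.11 and 5.44 in vehicle (2.23 ± 0.09, adjusted p = 3.56e-07). CLEC7A, the beta-glucan receptor dectin-1, differed by 2.04 ± 0.12 (adjusted p = 2.92e-06), and its alpelisib and vehicle arrays were dim, at 4.33 and 4.83 and at 4.06 and 4.52. AKR1B10, an aldo-keto reductase, lay at 6.84 and 7.68 under osimertinib, against 5.03 and 5.65 under alpelisib and 4.37 and 5.22 in vehicle (1.92 ± 0.12). CLIC3, an intracellular chloride channel protein, rose with each drug, by 3.29 with osimertinib and 1.43 with alpelisib. SOX2, a transcription factor of stem and airway cells, lay at 5.49 and 6.50 under osimertinib, against 4.09 and 4.92 under alpelisib, both dim, and 4.50 and 5.08 in vehicle (1.49 ± 0.13). IGFBP5, which binds insulin-like growth factors, had 4.96 with and 6.97 without L-histidinol under osimertinib, against 3.80 and 4.25 under alpelisib and 3.60 and 4.04 in vehicle. It was dim under alpelisib, in vehicle and on the osimertinib array with L-histidinol. Its fitted difference of 1.94 ± 0.29 was 1.27 without the osimertinib array that lacked L-histidinol and lost its call without the alpelisib array that lacked it. Among all alternative fits, which include other rules for probe sets, the lowest difference was 0.36 for IGFBP5 and 0.58 for SOX2. AGT, angiotensinogen (1.66), and NFE2, a leucine zipper factor of blood lineages that was dim under alpelisib (1.39), were also higher. TMT1A was higher by 1.42 with its brightest probe set, but by -0.02 when probe sets marked as matching several transcripts were dropped.

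Epithelial and survival genes followed. Of 22 measured lung and simple epithelial genes, 7 were called higher with osimertinib and 2 lower. MUC1, a cell-surface mucin, lay at 10.73 and 10.86 under osimertinib, against 9.66 and 9.71 under alpelisib and 8.91 and 9.19 in vehicle. The 3 conditions formed separate steps, and the drugs differed by 1.11 ± 0.07 (adjusted p = 2.9e-06). ELF3, an epithelial ETS factor (0.77), NKX2-1, the lung lineage factor (0.49), and CDH1, E-cadherin (0.41), were higher, and FOXA2 was lower (-0.56). Keratin 7 was not called (KRT7, -0.02, 95% interval -0.15 to 0.10). NKX2-1 and FOXA2 lost their calls in each fit without 1 single-drug array, and 3 to 4 members were then called higher. The inhibitors of differentiation ID2 (1.10 ± 0.14) and ID3 (0.89 ± 0.14), targets of BMP signalling, were higher with osimertinib, as was ID4, and these were the 3 called of 10 measured ID and BMP genes. ID3 was lost without the alpelisib array that lacked L-histidinol. Among 14 measured BCL2 family genes 2 were called higher and 2 lower. The prosurvival gene BCL2L1 lay at 7.95 and 8.30 under osimertinib, against 8.98 and 9.10 under alpelisib and 8.96 and 8.86 in vehicle (-0.92 ± 0.10, adjusted p = 0.000199). The other member called lower was PMAIP1, a proapoptotic gene (-0.39 ± 0.08). The proapoptotic genes BMF (0.78 ± 0.11) and BCL2L11, which encodes BIM (0.40 ± 0.07), were higher with osimertinib, and BCL2L11 lost its call when any 1 of the 4 single-drug arrays was left out. Proapoptotic members thus moved in both directions.

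**Figure D3:**
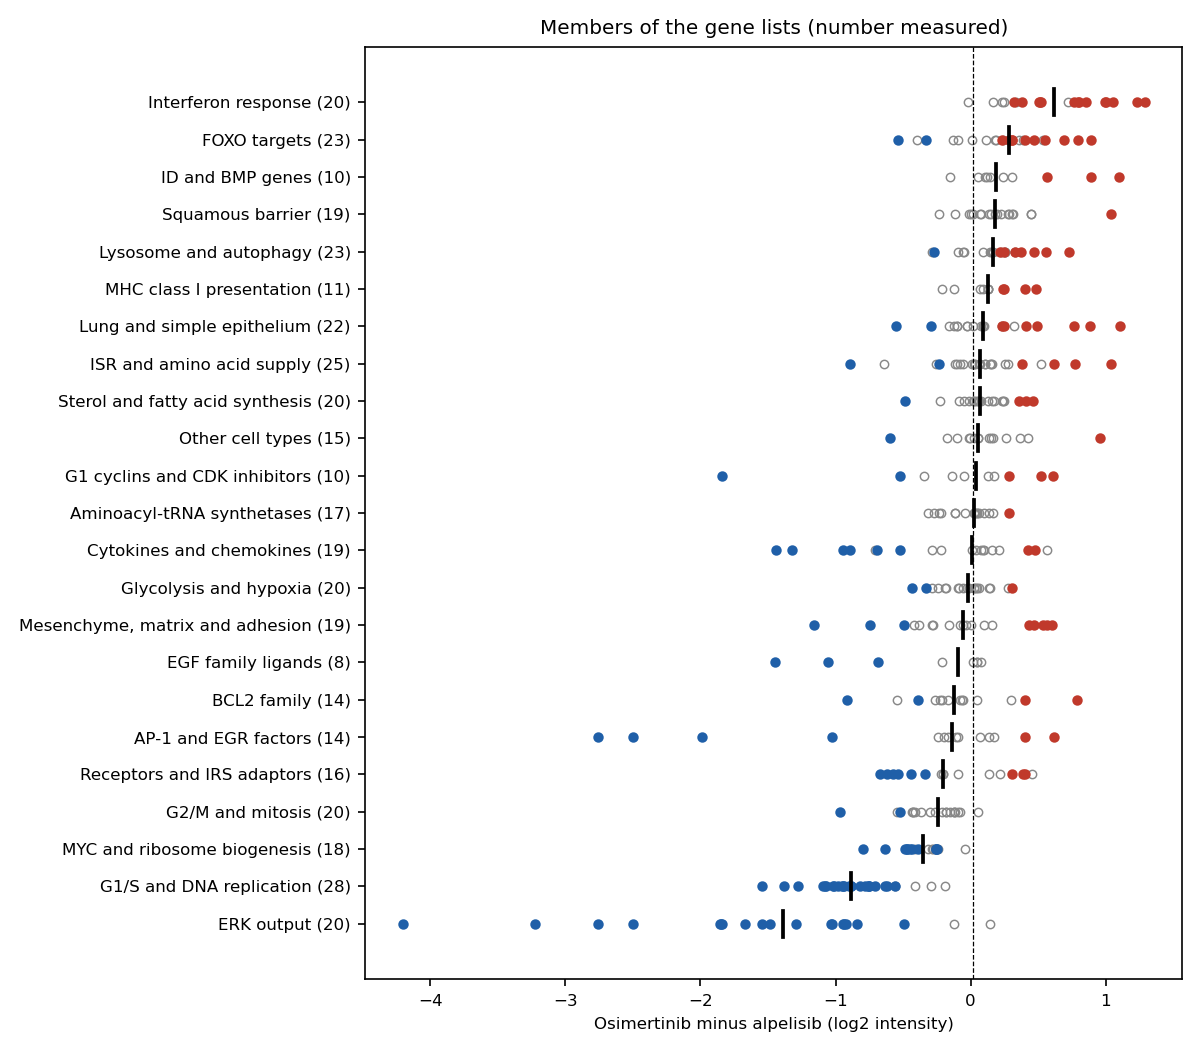
Osimertinib minus alpelisib in log2 intensity for each measured member of 23 gene lists; red and blue points are members called higher and lower with osimertinib, open points were not called, black bars are list medians and the dashed line is the median of all genes (0.018). ERK output (median -1.386) and DNA replication (-0.885) lie at the bottom and the interferon response (0.619) at the top.

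Of the FOXO targets, 10 of the 23 measured were called higher with osimertinib than with alpelisib, with 2 lower (median 0.283). Against vehicle 19 were higher with osimertinib and 13 with alpelisib, beside 16.4% and 7.08% of all genes. The medians were 0.748 and 0.441, and 0 were lower. FBXO32, the ubiquitin ligase atrogin-1, lay at 11.43 and 11.27 under osimertinib, against 10.79 and 10.51 under alpelisib and 9.50 and 9.22 in vehicle. Each condition was separate for FBXO32, and the drugs differed by 0.69 ± 0.07 (adjusted p = 8.33e-05). CCNG2, an atypical cyclin, rose by 1.61 with osimertinib and 1.14 with alpelisib. The members that were lower with osimertinib were IRS2 (-0.54 ± 0.12) and RICTOR (-0.33 ± 0.07), an adaptor of the insulin receptor and a subunit of the kinase complex that activates AKT. IRS2 lay at 8.84 and 7.69 under osimertinib, against 9.22 and 8.39 under alpelisib and 8.39 and 7.41 in vehicle. TSC22D3, a leucine zipper protein, differed by 0.89, but by 0.07 when marked probe sets were dropped. Without 1 of the 4 single-drug arrays 2 to 3 members were called higher, IRS2 was lost in 3 of those fits and RICTOR in each.

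Genes shared by the drugs were those called in the same direction against vehicle with each drug whose difference between the drugs had a 95% interval within 0.5 log2 units of 0. There were 751 shared rises (3.80% of the genes tested) and 570 shared falls (2.88%), and 131 of these 1321 genes were nevertheless called between the drugs with small differences. YPEL3, a small protein linked to growth arrest, lay at 7.88 and 7.98 under osimertinib, against 7.87 and 7.85 under alpelisib and 5.64 and 5.83 in vehicle. The drug arrays coincided well above vehicle, with a difference of 0.07 and a 95% interval of -0.11 to 0.25. LBH, a transcriptional cofactor, rose by 1.97 with each drug (difference -0.01, 95% interval -0.23 to 0.22). LEMD1 (1.86 with osimertinib and 1.62 with alpelisib), ATG9B, a lipid scramblase of autophagy (1.56 and 1.65), and the noncoding RNA OSER1-DT (1.42 and 1.24) rose as well. The insulin receptor INSR (0.53 and 0.62) and ERBB3 (1.17 and 0.86), receptors whose genes FOXO proteins raise, met the rule, although ERBB3 was also called between the drugs (0.31 ± 0.07). On the arrays with both drugs YPEL3 lay at 9.39 and 9.48 and ATG9B at 7.997 and 8.54, above each single drug.

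Among the shared falls SNRPA1, a spliceosome protein, lay at 9.52 and 9.44 under osimertinib, against 9.58 and 9.58 under alpelisib and 10.25 and 10.12 in vehicle, and fell by 0.70 and 0.60. CCDC138 changed by -1.03 and -0.83, the mitotic kinase PLK1 by -0.75 and -0.62, and UQCC3, an assembly factor of respiratory complex III, by -0.66 and -0.60. SREBF1, the master regulator of fatty acid synthesis, changed by -0.65 with osimertinib and -0.43 with alpelisib, and FASN, fatty acid synthase, by -0.47 and -0.39. Of 17 measured aminoacyl-tRNA synthetases 1 was called between the drugs, WARS1 (0.29), which is near the 5.54% of all genes called higher. Shared falls were 5 of the 17, beside 2.88% of all genes, HARS1 (-0.53 and -0.31), the synthetase for histidine, among them. PSAT1 of serine synthesis (-0.49 and -0.38) and the amino acid transporter gene SLC7A5 (-0.22 and -0.36) also fell with each drug. The shared class rests on the alpelisib arrays, with 44 genes left without the one that had L-histidinol and 259 without the one that lacked it, against 624 to 667 without an osimertinib array or the vehicle array that lacked L-histidinol. The alpelisib falls of PLK1, UQCC3, CCDC138, SREBF1, FASN, HARS1, PSAT1 and SLC7A5 were each lost in at least 1 fit without an alpelisib array.

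A few genes separated the drugs because alpelisib moved them. DDIT4, an inhibitor of mTORC1 induced by stress, lay at 11.02 with and 9.51 without L-histidinol under osimertinib, against 10.35 and 8.62 under alpelisib and 11.21 and 9.56 in vehicle. In each L-histidinol state osimertinib and vehicle nearly coincided and alpelisib lay below them, so that osimertinib exceeded alpelisib by 0.78 ± 0.09 (adjusted p = 0.000348). The next 4 genes were chosen after their values were seen. ITGB5, the integrin beta 5 subunit, lay at 8.77 and 8.99 under osimertinib, against 9.73 and 9.70 under alpelisib and 9.10 and 8.91 in vehicle (-0.84 ± 0.09, adjusted p = 0.00025). SRPX2, a secreted sushi-repeat protein, was higher with alpelisib than vehicle by 0.79 ± 0.09, while osimertinib changed it by -0.17 (adjusted p = 0.18). PIM1, a survival kinase, rose by 0.85 and MLPH, a melanosome transport adaptor, by 0.56 with alpelisib, against 0.21 and 0.01 with osimertinib (adjusted p = 0.222 and 0.96). PTGS2, cyclooxygenase 2 and a member of the cytokine list, lay at 6.05 and 6.85 under osimertinib, against 7.27 and 7.42 under alpelisib and 6.27 and 6.66 in vehicle (-0.89 ± 0.18, adjusted p = 0.0108). The alpelisib rises of ITGB5, PIM1 and MLPH against vehicle were lost without the alpelisib array that had L-histidinol and that of PTGS2 without either alpelisib array or the vehicle array that had L-histidinol. Between the drugs, PIM1 and PTGS2 were lost without 3 of the 4 arrays, and DDIT4, ITGB5, SRPX2 and MLPH kept their calls without any 1 of them.

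**Figure D4:**
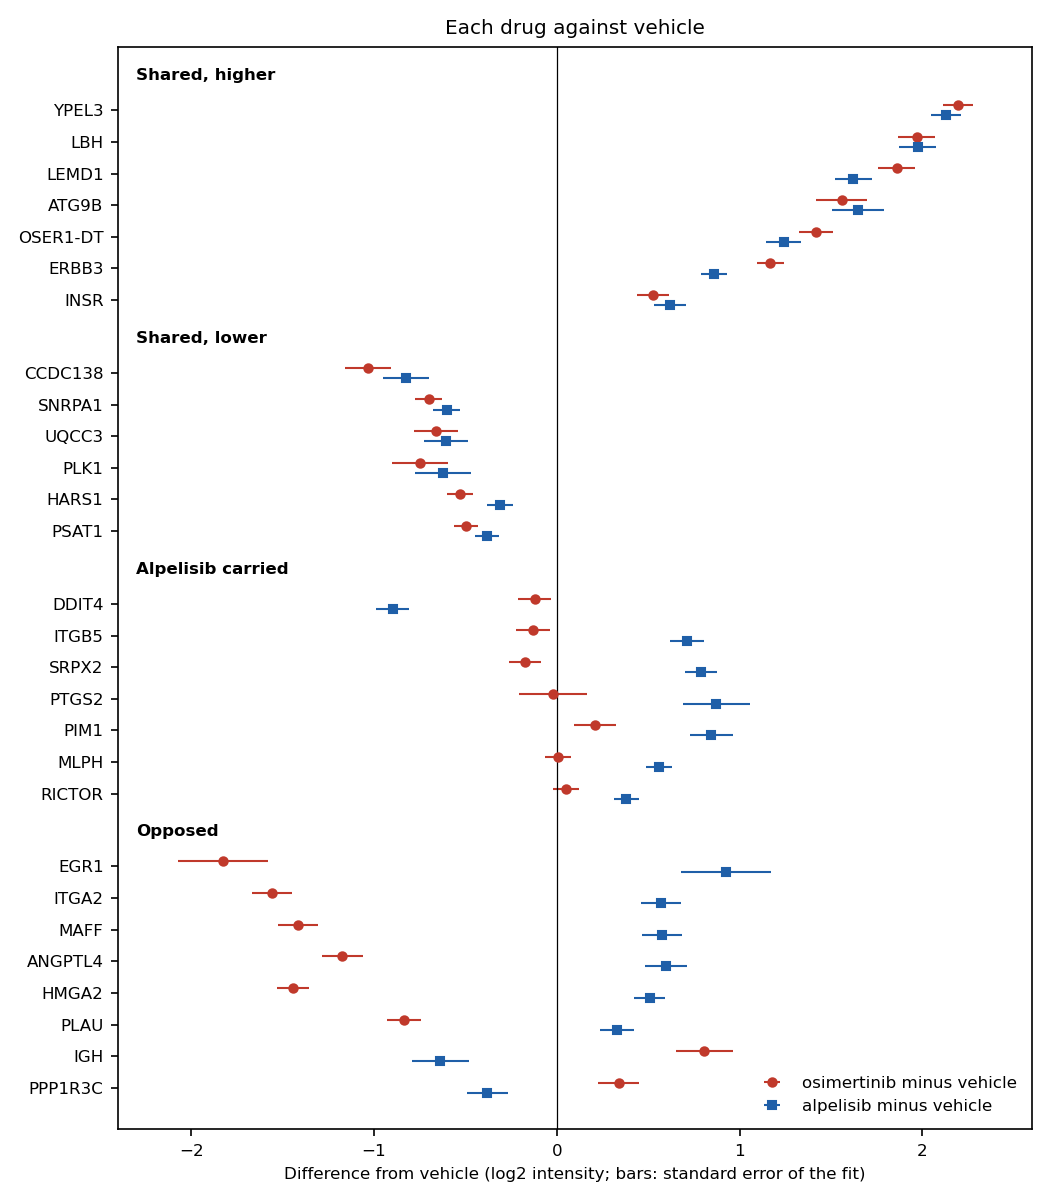
Difference from vehicle in log2 intensity for osimertinib (red circles) and alpelisib (blue squares) for genes shared by the drugs, genes carried by alpelisib and genes moved in opposite directions; bars are standard errors of the fit. The paired points coincide for YPEL3 and LBH, lie on opposite sides of 0 for EGR1 and ITGA2, and for DDIT4 alpelisib alone is away from 0.

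The counts of the remaining lists are likewise to be read against the 5.54% of all genes called higher and 5.51% called lower. Of 20 measured sterol and fatty acid genes 3 were called higher with osimertinib and 1 lower, and HMGCS1 differed by 0.13 (95% interval -0.18 to 0.43). The median of this list was -0.046 with and 0.325 without L-histidinol. Of 20 glycolysis and hypoxia genes 1 was called higher and 2 lower, HK2, hexokinase 2, by -0.33 ± 0.08 and PFKP, a phosphofructokinase, by -0.43 ± 0.05, while LDHA differed by 0.02 (-0.07 to 0.12). Of 25 genes of the integrated stress response 4 were called higher and 2 lower, and ATF4, its central factor, lay at 11.72 and 10.88 under osimertinib, against 11.65 and 10.80 under alpelisib and 11.76 and 10.73 in vehicle. Of 23 lysosome and autophagy genes 7 were called higher with osimertinib and 1 lower, led by the protease CTSH (0.73 ± 0.08) and the autophagy kinase ULK1 (0.56 ± 0.09), and 1 to 2 were called higher when a single-drug array was left out. HK2 was lost in each such fit and ULK1 without the alpelisib array that lacked L-histidinol. Of 19 squamous genes 1 was called, higher, and 13 of them had mean levels under 5. Of 19 mesenchymal and matrix genes 5 were called higher and 3 lower, among them SPARC (0.60) upward and CCN2 (-0.75) downward, each lost without 2 of the 4 single-drug arrays. Of the 15 markers of other cell types KDR (-0.59) was called lower, at a mean level of 3.77, and COL1A1 higher. COL1A1, listed as a fibroblast marker, was higher with osimertinib, with 9.39 and 9.95, against 8.63 and 8.79 under alpelisib and 8.12 and 8.55 in vehicle. Its difference was 0.96 ± 0.09, or 0.43 over all its probe sets, while COL3A1 and LUM, other fibroblast markers, had mean levels of 2.83 and 2.17.

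The drug difference was also compared between the L-histidinol states. With the variance prior of the main fit, 0 genes (0% of those tested) were called for a change of the difference with L-histidinol, and 713 had an unadjusted p below 0.05 by the same limma test. That prior was estimated from departures from added drug and L-histidinol effects, which include the change tested here. The 0 therefore cannot show that the difference was alike in both states. With a prior estimated in the fit that holds all 2-way terms, which has 1 residual degree of freedom, 95 genes were called. CXCL8, a neutrophil chemokine chosen after its values were seen, had the smallest unadjusted p. It was dim on 3 of the 4 single-drug arrays, with 4.06 and 4.49 under osimertinib, against 5.58 and 4.38 under alpelisib, and differed by -1.52 with L-histidinol and by 0.11 without it. IGFBP5 differed by 1.15 with L-histidinol and 2.72 without, and KLHDC7B, a kelch domain protein, by 2.20 with and 1.15 without.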

How the data were processed

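Each of the 8 conditions was hybridised to 1 Affymetrix U133 Plus 2.0 array as RNA from NCI-H1975 cells. The authors deposited signal intensity on a linear scale for each probe set, and RMA and affy are the tools named in the submitters' processing notes, with versions not given in the sources. The log2 of each intensity was used with no further scaling. The number of arrays limits the precision.

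Of 54675 probe sets, 62 controls, 1801 with several gene symbols and 11721 with none were left out. Each of 19775 genes was represented by its brightest probe set, and 9252 genes had only 1. Probe sets whose names end in _s_at or _x_at are marked by the manufacturer as possibly matching several transcripts.

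The main model, in limma 3.58.1 under R 4.3.3, held a drug factor of 4 levels plus an L-histidinol term over all 8 arrays, with a trended variance prior (3 residual and 8.08 prior degrees of freedom). Tests were two-sided, with Benjamini-Hochberg adjustment across the 19775 genes. A change of the drug difference with L-histidinol was tested with all 2-way terms. Alternatives were the arrays and terms in the fit, the probe set rule, scaling, an added intensity of 16, a filter on dim genes, the variance trend and leaving out each array. Where that left a drug with 1 array, it was assumed to vary like the others.

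The comparison, the 23 gene lists and the tests were chosen with earlier results of these data known, so counts over lists are descriptions. Named genes were the 12 largest differences each way, the 8 largest shared changes each way, up to 5 opposed genes each way, up to 5 members of each list and 15 fixed genes, of which some are printed. Further list members are printed as examples, and genes outside the lists are said to be chosen after their values were seen. Promoter sequences are from the RefSeq table and were searched with Python 3.11.15.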

Additional observations from a re-analysis of the deposited data

How the results depend on the processing

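All 2185 genes called between osimertinib and alpelisib kept their sign on leaving out each array. This is no separate check. Leaving out a vehicle or combination array cannot change the estimate between the drugs. Leaving out a single-drug array rests it mainly on 1 pair, and the signs of the pairs already matched. The counts did not hold. Leaving out 1 array gave 452 to 2751 genes called between the drugs (194 to 1389 higher and 258 to 1391 lower), 3755 to 6375 for osimertinib and 175 to 3009 for alpelisib against vehicle, 44 to 1785 shared and 1 to 27 opposed. With only the 4 single-drug arrays, 3437 genes were called (1712 higher, 1725 lower). With no L-histidinol term, 150 were called between the drugs (49 higher, 101 lower), 2466 for osimertinib and 42 for alpelisib against vehicle, with 14 shared and 0 opposed. With the mean of probe sets, 709 were higher with osimertinib, 1222 were called for alpelisib against vehicle, 747 were shared and 5 opposed. Without a variance trend, 1042 were called between the drugs (532 higher, 510 lower) and 779 for alpelisib against vehicle, with 353 shared and 7 opposed. With all 2-way terms, these counts were 4670 (2390 and 2280), 5022, 3349 and 85. Without probe sets ending in _s_at or _x_at, 842 genes were shared, and some changes turned round: TMT1A to -0.023 between the drugs, -0.044 with osimertinib and -0.022 with alpelisib against vehicle, TSC22D3 to -0.002 and -0.067 against vehicle, KRT7 to -0.015 with osimertinib and HMGA2 to -0.132 with alpelisib against vehicle. Dependence of the difference on L-histidinol was called in 95 genes with a prior estimated in the 2-way fit. The causes were not tested. Median centring, repeated quantile normalization, an added intensity of 16 and a filter on dim genes kept each of these counts within 1.5 times its value. Of 7048 values of named genes under all alternatives, 6352 kept their side of the threshold and direction, 543 lost and 146 gained a call, and 7 reversed. The pairing of arrays by L-histidinol state is a term of the main model, so that the values with no L-histidinol term are those of the unpaired fit. In it 13 ERK output genes were called lower between the drugs, and 0 members of the replication, mitosis, ribosome, interferon, antigen presentation and FOXO lists were called.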
